A study of Mus musculus with 6 samples.

Results

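The BTG and TOB antiproliferative family was taken as 6 mouse genes, Btg1, Btg2, Btg3, Btg4, Tob1 and Tob2, found by symbol in the array annotation. Of these, 5 had a probeset listed under 1 symbol, out of 19938 genes measured that way in the whole series, and Btg3 had none. The study put HLX, a homeobox transcription factor, into blood stem and progenitor cells and measured RNA on Affymetrix arrays. Its samples were Lin-Kit+Sca-1+ cells, the marrow fraction that holds stem cells and multipotent progenitors, sorted from young adult wild-type FVB/nJ mice and grown with mIL-3, mIL-6 and mSCF. One group of 3 arrays came from cells that received a mouse HLX lentivirus (HLX vector, written in the labels both as pCAD-HLX-IRES-GFP and as pCAD-IRES-GFP-Hlx), the other group of 3 from cells that received the pCAD-IRES-GFP lentivirus without HLX (control vector). Both groups were exposed to 8 µg/ml polybrene and sorted as GFP-positive after 2 days, so each array reports transduced cells only, and 5000 to 10000 cells gave the RNA of a sample. The labels do not say whether the replicates were separate mice or cultures, and a p-value therefore covers only the variation from sample to sample, which can be technical.

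The family is defined by a conserved N-terminal domain that binds the deadenylases CNOT7 and CNOT8 of the CCR4-NOT complex, the machine that shortens the poly(A) tails of mRNAs. BTG1 and BTG2 also bind the arginine methyltransferase PRMT1, while TOB1 and TOB2 carry C-terminal motifs for the poly(A)-binding protein PABPC1. In blood cells BTG1 and BTG2 are known for restraining lymphocyte growth and for keeping resting T cells quiescent, and forced expression of most members slows the cell cycle in cultured cells. BTG4 is known mainly from oocytes, where it acts in the clearance of maternal mRNA.

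Values are log2 expression levels, so 1 unit is a 2-fold difference. Probesets of different genes differ in how strongly they hybridise, so differences between vectors are read within a gene, and the median over probesets or genes is only a rough mark of bright and dim signals. Median levels over all probesets were 6.32 to 6.40 on the 6 arrays. Hlx itself stood at 10.75, 9.74 and 10.28 in HLX arrays, against 6.99, 7.29 and 7.62 in control arrays, so the groups were 2.12 log2 units apart at their nearest values (adjusted p from limma 0.0782). Kit, the stem cell factor receptor (9.50 ± 0.16 in HLX arrays and 9.41 ± 0.18 in control arrays, SD, n = 3 each), and Cd34 (11.04 ± 0.32 in HLX arrays and 11.21 ± 0.05 in control arrays) were bright, while the stem cell markers Slamf1 and Tek averaged 5.15 and 6.20 in HLX arrays and 5.32 and 6.49 in control arrays, below the median gene level of 6.57. Of 8 measured stem and progenitor markers 7 had a lower mean with HLX, where 47.5% of all genes had a higher mean. Flt3, a cytokine receptor of multipotent progenitors, was at 8.52 ± 0.32 in HLX arrays and 9.20 ± 0.08 in control arrays without overlap (unadjusted p from limma 0.00369, adjusted p 0.901). The B and T cell markers Ms4a1, Cd79a, Cd3d and Cd3g lay below the median of all probesets, and 8 of 9 measured B and T cell markers lay below the median gene level. The exception was Cd79b, a subunit of the B cell receptor, at 7.36 ± 0.09 in HLX arrays and 7.99 ± 0.44 in control arrays without overlap (unadjusted p from limma 0.0191, adjusted p 0.936). Sca-1 was not analysed here.

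Across the family, 4 of 5 measured members had a lower mean in HLX arrays and 1, Btg2, a higher mean. Over all genes 47.5% had a higher mean in HLX arrays, and 54.4% after median centring of the arrays. In the limma fit over all 19938 genes, 0 members had a Benjamini-Hochberg adjusted p under 0.05, and 0.0% of all genes did. At an unadjusted p under 0.05 stood 1 member, Btg1, and 4.8% of all genes. The groups did not overlap for 1 member, again Btg1, and for 9.19% of all genes, 4.85% in the direction of Btg1. The median difference of the 5 members was -0.12, beside -0.0078 over all genes, and with 5 members these counts describe the family without setting it apart from other genes.

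Btg1, for which the family is named with Btg2, was the only measured one whose HLX arrays all lay below its control arrays. Its log2 level was 6.87, 7.02 and 6.98 in HLX arrays, against 7.12, 7.17 and 7.50 in control arrays. The 3 HLX arrays were close together, the nearest arrays of the groups were 0.10 apart, and control replicate 3 stood above the other two control arrays. The mean was 6.96 ± 0.08 with HLX and 7.26 ± 0.21 with control (SD, n = 3 each), 1.23-fold lower with HLX (95% interval from limma 1.01 to 1.51). The log2 difference of -0.30 ± 0.13 (SE) had an unadjusted p from limma of 0.0443 and an adjusted p of 1.0. An exact permutation test over the arrays gave p = 0.1, and 3 arrays against 3 cannot give less. Without control replicate 3 the difference was -0.19 (unadjusted p from limma 0.146), and 8.97% of all genes had a larger absolute difference than Btg1 with all arrays. Means of some marker lists separated the same groups. The mean of 8 stem and progenitor markers was 8.36 to 8.54 in HLX arrays and 8.62 to 8.67 in control arrays, and that of 9 mature granulocyte and monocyte markers 5.83 to 6.21 in HLX arrays and 5.61 to 5.72 in control arrays. Within these lists 7 of the 8 markers had a lower mean with HLX, and of the 9 markers 6 a higher and 3 a lower one. List means of erythroid, megakaryocyte and platelet, mast cell and basophil, and stromal and endothelial markers overlapped between groups. That of B and T cell markers reached 5.72 in both groups. The part of these markers in the Btg1 value was not tested.

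Btg2, an immediate early gene and p53 target that encodes the closest relative of BTG1, pointed the other way. It stood at 8.62, 9.16 and 9.32 in HLX arrays, against 8.93, 8.19 and 8.48 in control arrays. HLX replicates 2 and 3 were above every control array, but HLX replicate 1 lay below control replicate 1, so the groups overlapped. The means were 9.03 ± 0.37 with HLX and 8.53 ± 0.37 with control (SD, n = 3 each), a log2 difference of 0.50 ± 0.24 (SE) or 1.42-fold (95% interval from limma 0.96 to 2.09). The unadjusted p from limma was 0.0705, the adjusted p 1.0 and the exact permutation p 0.2. The replicates of Btg2 spread more widely than those of 92.6% of all genes, with a pooled SD of 0.37 beside a median over genes of 0.16. Without HLX replicate 1 the difference was 0.71, without control replicate 1 it was 0.70, and without control replicate 2 it was 0.33.

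Control replicate 1, the highest control array for Btg2, also had the highest mean level of 7 mast cell and basophil markers. That mean ran from 4.88 to 5.05 in HLX arrays and was 5.92, 5.12 and 4.97 in control arrays 1, 2 and 3. All 7 of these markers were below the median gene level when averaged over the arrays. In control replicate 1 Cpa3, Gzmb, Mcpt8 and Fcer1a had their highest values, 7.47, 7.66, 6.60 and 4.53. Ms4a2 and Mcpt4 were highest in HLX arrays, and Prss34 was lowest in control replicate 1, at 5.56. Control replicate 1 also had the highest mean of 5 megakaryocyte and platelet markers, 7.77, against 7.06 to 7.37 on the other arrays. Of these, Itga2b and Gp9 were highest in HLX replicate 3. HLX replicate 3, the highest array for Btg2, had the highest mean of 9 mature granulocyte and monocyte markers, 6.21. Of these 9 markers 7 were below the median gene level. Csf1r, the macrophage colony-stimulating factor receptor, stood at 6.49, 7.80 and 8.92 in HLX arrays, against 6.28, 6.48 and 6.37 in control arrays. Lyz2, Adgre1 and S100a8 were also highest in HLX replicate 3, at 8.04, 5.37 and 5.44. The remaining markers of the list were not highest there. Itgam, an integrin of myeloid cells, was at 7.24, 6.91 and 6.72 in HLX arrays, against 6.49, 5.72 and 5.99 in control arrays. S100a9 was also highest in HLX replicate 1, at 6.06, and 6 of the 9 markers had a higher mean with HLX and 3, Ly6g, Camp and Ltf, a lower one. The part of these cells in the values of Btg2 was not tested. In sorted bulk samples, fewer cells of a type and less RNA per cell cannot be told apart.

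**Figure D1:**
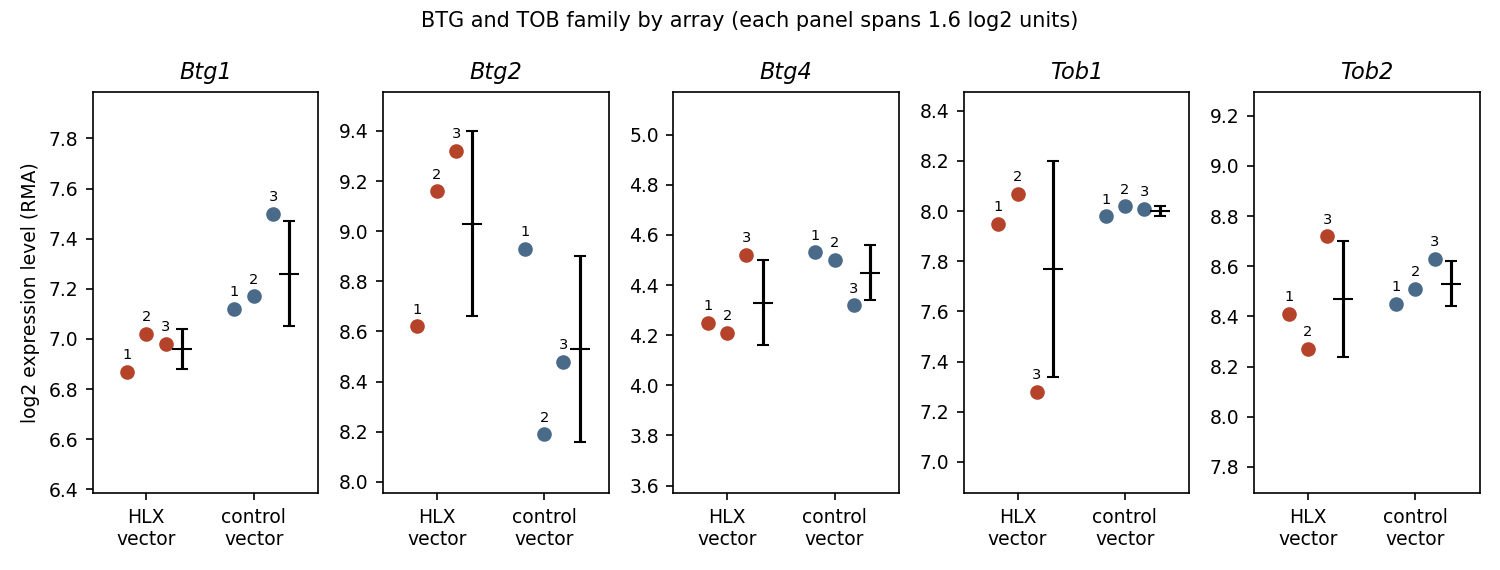
Log2 expression level of the 5 measured members on each array, HLX vector on the left and control vector on the right of each panel, with points numbered by replicate and black bars for the mean and SD (n = 3). Btg1 is the only panel without overlap, between 7.02 and 7.12, and the low Tob1 point at 7.28 is HLX replicate 3.

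Tob1, which encodes a member that also binds SMAD proteins, differed between groups through 1 array. Its levels were 7.95, 8.07 and 7.28 in HLX arrays, against 7.98, 8.02 and 8.01 in control arrays. HLX replicates 1 and 2 lay on either side of the 3 control values, which agreed within 0.04, and HLX replicate 3 lay far below all others. The log2 difference was -0.24 ± 0.20 (SE), or 1.18-fold lower with HLX (95% interval from limma 0.85 to 1.63), with an unadjusted p from limma of 0.277. Without HLX replicate 3 it was 0.0086, so the mean difference rested on that array. In the fit with array weights HLX replicate 3 had the lowest weight, 0.552, beside 0.889 to 1.38 for the other arrays. Tob1 was then at -0.14 (unadjusted p from limma 0.412). HLX replicate 3 also had the lowest mean of 8 stem and progenitor markers, 8.36, and the highest mean of mature granulocyte and monocyte markers. Among HLX arrays, though, Gata2 of the first list was highest there, 8.02, and Itgam of the second lowest, 6.72. The part of these markers in the Tob1 value was not tested.

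Tob2, the paralogue of Tob1, was at 8.41, 8.27 and 8.72 in HLX arrays, against 8.45, 8.51 and 8.63 in control arrays. The HLX values enclosed the control values, and the difference of -0.07 ± 0.13 (SE) had an interval from -0.38 to 0.25 (unadjusted p from limma 0.633). In HLX replicate 3, where Tob1 was lowest, Tob2 was at its highest. A difference of 1.30-fold lower or 1.19-fold higher lies within the interval of Tob2.

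Btg4 was dim on every array, at 4.25, 4.21 and 4.52 in HLX arrays, against 4.53, 4.50 and 4.32 in control arrays. All values were below the array medians, and the file holds no detection call to show whether any transcript was present. The groups overlapped, and the difference of -0.12 ± 0.12 (SE) had an unadjusted p from limma of 0.332. RMA compresses differences between weak signals.

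**Figure D2:**
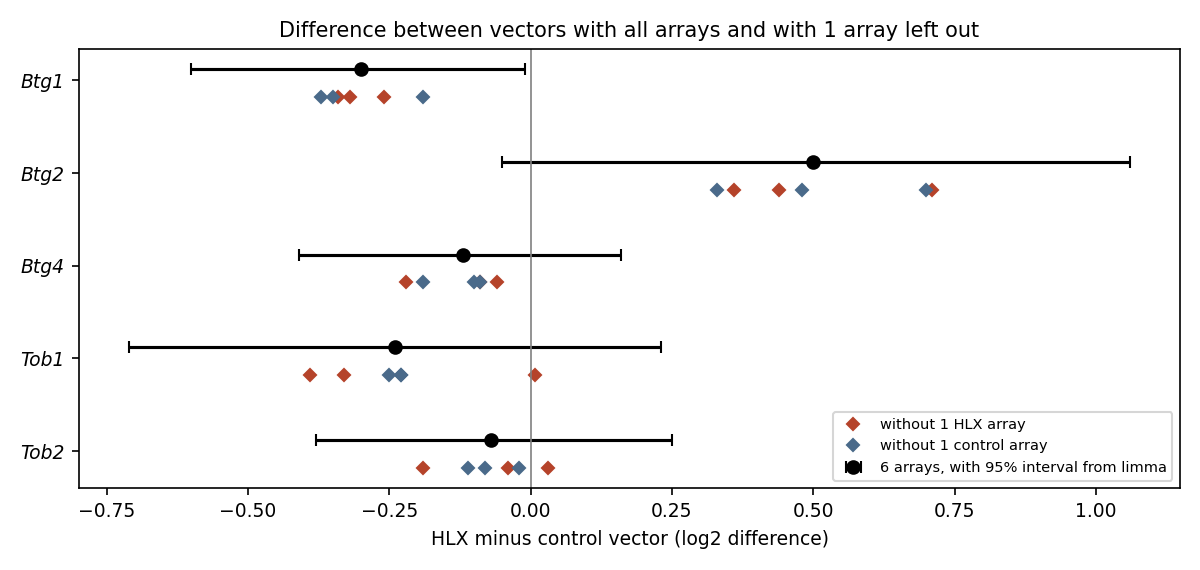
HLX minus control vector in log2 units for each member, with the 95% interval from limma over 6 arrays (black) and the same difference with 1 HLX array (red) or 1 control array (blue) left out. The Btg1 points stay between -0.37 and -0.19 and the Btg2 points between 0.33 and 0.71, while Tob1 and Tob2 each have 1 point above 0.

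The remaining member, Btg3, could not be read as a gene of its own. Its 2 probesets are listed under Btg3 and the predicted gene Gm7334 together, so their signal belongs to neither symbol alone. The brighter of these shared probesets was at 8.09, 7.84 and 7.63 in HLX arrays, against 7.45, 8.14 and 8.24 in control arrays. The groups overlapped widely, and a fit over all 35556 probesets gave a difference of -0.09 ± 0.24 (SE, unadjusted p from limma 0.723). The dimmer probeset followed it on every array and gave -0.10 ± 0.23 (SE). Control replicate 1 was the lowest array for both.

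Btg1 has near copies in the mouse annotation, Btg1b and Btg1c, which the annotation lists on probesets of their own. Btg1b averaged 3.49 ± 0.03 with HLX and 3.61 ± 0.13 with control, and Btg1c 4.60 ± 0.09 with HLX and 4.56 ± 0.09 with control (SD, n = 3 each). Both were far below the array medians, and their differences of -0.12 ± 0.10 and 0.04 ± 0.10 (SE) had unadjusted p from limma of 0.261 and 0.676. The overlap of the Btg1 probes with these copies was not analysed here.

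The paralogues were compared with one another through their responses, by taking the log2 difference between a pair of genes within each array and comparing it between vectors. Of the 10 pairs among the 5 measured members, Btg1 and Btg2 had the largest shift with all arrays. The Btg1 level minus the Btg2 level was -1.75, -2.14 and -2.34 in HLX arrays, against -1.80, -1.02 and -0.98 in control arrays. HLX replicate 1 and control replicate 1 lay side by side, while the other 2 arrays of each vector were well apart. The shift between vectors was -0.81 ± 0.32 (SE, n = 3 per group), with an exact permutation p of 0.2 and an adjusted p of 0.5 over the 10 pairs. Without HLX replicate 1 it was -0.97 and without HLX replicate 2 it was -0.78, both smaller in size than the shift of Btg2 minus Tob1 with the same array left out, 1.04 and 0.83.

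The shifts of Btg2 against the other members were next in size. Btg2 minus Tob1 shifted by 0.74 ± 0.46, Btg2 minus Btg4 by 0.63 ± 0.27 and Btg2 minus Tob2 by 0.57 ± 0.31 (SE), each with an exact permutation p of 0.2. Without HLX replicate 3, the array with the low Tob1 value, Btg2 minus Tob1 shifted by 0.35. These comparisons share the values of Btg2 and are not independent. Btg1 minus Tob2 shifted by -0.24 ± 0.16 (exact p = 0.3), by -0.12 without HLX replicate 3 and by -0.37 without HLX replicate 2. With all arrays the pairs without Btg2 lay between -0.24 and 0.11. Groups overlapped in all 10 pairs, the adjusted p ran from 0.5 to 1.0, and 3 against 3 arrays cannot go below 0.1 before adjustment. The opposite signs of Btg1 and Btg2 were therefore not shown to be a difference between these paralogues.

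**Figure D3:**
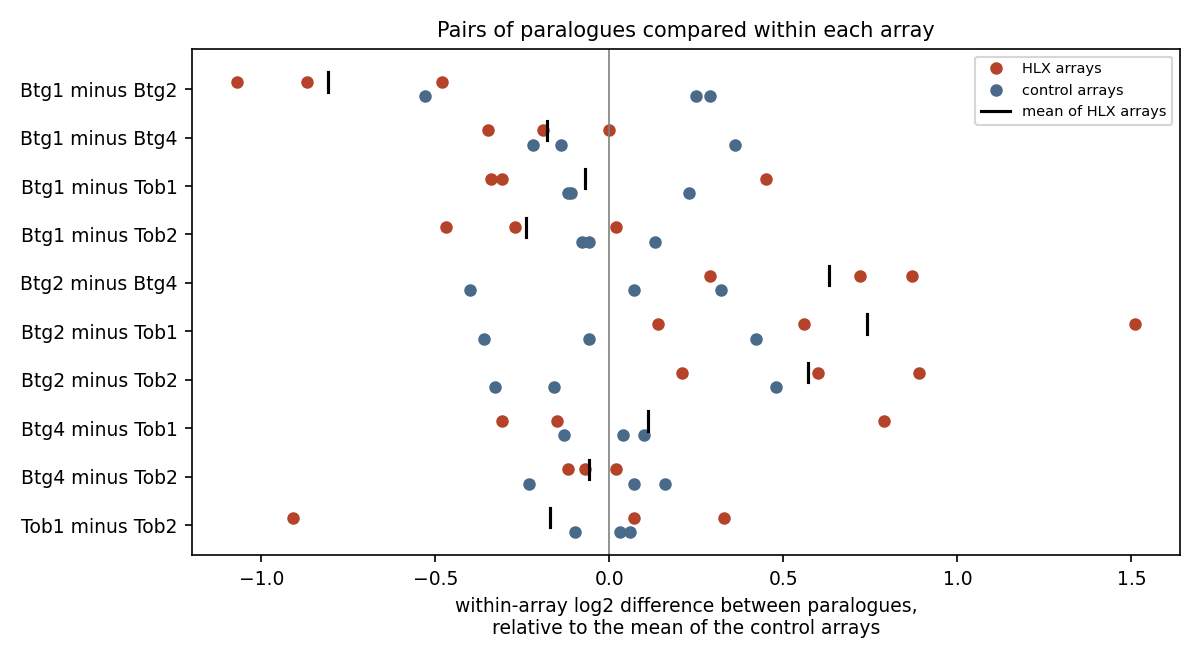
Within-array log2 difference between 2 paralogues for the 10 pairs, relative to the mean of the control arrays, with HLX arrays in red, control arrays in blue and a black bar at the HLX mean. The groups overlap in each pair, and with all arrays the bar lies farthest from 0 for Btg1 minus Btg2, at -0.81.

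The upstream sequences of Btg1 and Btg2 are shown because these members had the largest shift against each other with all arrays and because HLX is a homeodomain protein. All 6 members matched RefSeq entries of build GRCm38.p6, and each stretch printed holds the 250 bases before the annotated start. For homeodomain proteins the letters TAATTA were searched on both strands, together with the shorter core TAAT. For the cAMP response element they were TGACGTCA or the shorter TGACGT. The TATA box was searched as TATAAA. The last string was CCAAT, and capitals mark matches to any of these letters. The Btg1 stretch is chr10:96616751-96617000 on the plus strand and the Btg2 stretch is chr1:134079156-134079405 on the minus strand, each written 5′ to 3′ in the direction of the gene.
Btg1: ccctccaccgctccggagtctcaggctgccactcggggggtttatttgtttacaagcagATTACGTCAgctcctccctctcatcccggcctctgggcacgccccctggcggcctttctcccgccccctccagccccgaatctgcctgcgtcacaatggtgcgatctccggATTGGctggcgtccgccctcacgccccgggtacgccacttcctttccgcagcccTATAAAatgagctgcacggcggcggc
Btg2: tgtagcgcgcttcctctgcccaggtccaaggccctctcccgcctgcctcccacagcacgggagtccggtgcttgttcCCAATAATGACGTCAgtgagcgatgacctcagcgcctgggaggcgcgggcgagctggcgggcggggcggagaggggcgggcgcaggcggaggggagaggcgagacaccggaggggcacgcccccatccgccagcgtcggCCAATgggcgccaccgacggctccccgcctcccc

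TAATTA had no match in the stretches of any member, and 4.84% of all 32851 upstream stretches of the same length held it. Btg1 and Btg2 each held 1 TAAT on 1 strand, a string found in 54.9% of all stretches, and in both genes it overlapped a cAMP response element match by its end base. In Btg2 this was the full TGACGTCA, from 166 to 159 bases before the start, which 1.55% of all stretches held. In Btg1 it was the shorter TGACGT, from 188 to 183 bases before the start on the opposite strand, which 6.47% held. Btg1 had TATAAA from 26 to 21 bases before the start and Tob1 from 47 to 42, beside 12.4% of all stretches, and Btg2, Btg3, Btg4 and Tob2 had none in this window. TAAT was also found for Btg4 and Tob2. CCAAT was found for every member but Tob2, beside 33.8% of all stretches. These are matches of letters, with no binding data in the series.

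The partners and upstream regulators of the family were then read from lists of known pathway genes. In the CCR4-NOT complex, 7 of 12 measured subunits had higher and 5 lower means in HLX arrays, with a median difference of 0.048. Cnot9, which encodes a subunit that docks partner proteins, was at 8.74, 9.07 and 8.83 in HLX arrays, against 8.65, 8.62 and 8.55 in control arrays. It was the 1 subunit at an unadjusted p under 0.05 (0.27 ± 0.11, SE, p from limma 0.0446), where 2.44% of all genes were higher at that p. Cnot4, a ubiquitin ligase, was at -0.25 ± 0.11 and Cnot3, of the NOT module, at 0.22 ± 0.12. The direct binding partners of the family, given outside the naming rule for that role, were at 0.11 ± 0.12 for Cnot7 and 0.13 ± 0.16 for Cnot8, and both overlapped between groups.

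Among 18 poly(A) tail and deadenylation factors, 9 were higher, 9 lower and 0 at an unadjusted p under 0.05. Pum2, an RNA-binding repressor that recruits CCR4-NOT, was at 0.24 ± 0.11 (SE) without overlap, Cpeb4, which binds polyadenylation elements in mRNA, at -0.40 ± 0.20 and the release factor gene Gspt2 at 0.47 ± 0.26. Pabpc1, named for its contact with the TOB proteins and outside the naming rule, was at 12.61, 12.62 and 12.55 in HLX arrays and 12.57, 12.61 and 12.58 in control arrays, with wide overlap. Of 9 arginine methyltransferases 5 were higher and 4 lower, with a median of 0.0093 and 0 at an unadjusted p under 0.05. Carm1 was at 0.39 ± 0.17, Prmt1, the partner of BTG1 and BTG2, at 0.21 ± 0.12, and the dim Prmt8 at -0.16 ± 0.12.

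Of 12 SMAD genes and regulators, which meet TOB proteins in BMP and TGF-β signalling, 4 were higher and 8 lower, and 0 had an unadjusted p under 0.05. Smad3 was at -0.19 ± 0.11 (SE), Smad1 at -0.18 ± 0.17 and the ubiquitin ligase gene Smurf1 at 0.11 ± 0.11. Among 6 nuclear partners, 2 higher and 4 lower, Rara, a retinoic acid receptor, was at 0.35 ± 0.17, Thra at -0.19 ± 0.17 and Hoxb9, whose protein binds BTG1 and BTG2, at -0.05 ± 0.13. The medians of these lists were -0.027 and -0.017.

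The p53 list bears on Btg2, a known p53 target. Of 17 measured genes 9 were higher and 8 lower, with a median of 0.011, and Cdkn1a and Trp53 were not analysed here. At an unadjusted p under 0.05 stood 3 genes, all lower with HLX, where 2.36% of all genes were lower at that p. Of all genes at that p 50.8% were higher, and 61.9% after median centring of the arrays. Rrm2b, a ribonucleotide reductase subunit induced by p53, was at 8.05, 7.67 and 7.84 in HLX arrays, against 8.55, 8.43 and 8.07 in control arrays (-0.49 ± 0.16, SE, p from limma 0.0154). Pmaip1, which encodes the death protein NOXA, was at 7.12, 7.21 and 7.31 in HLX arrays, against 7.40, 7.55 and 8.24 in control arrays (-0.51 ± 0.21, p from limma 0.0448). Sesn1, a stress-induced inhibitor of growth signalling, was at -0.33 ± 0.14 with overlapping groups (p from limma 0.0481). Their adjusted p from limma was 0.932 or more. These 3 genes were picked by p, and 9 genes of the list had a higher mean with HLX, as Btg2 did. The part of p53 in the Btg2 value was not tested.

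Of 20 immediate early genes, the class in which Btg2 is usually placed, 7 were higher and 13 lower, with a median of -0.027. Nr4a2, an orphan nuclear receptor, was the 1 gene of these 20 at an unadjusted p under 0.05 (-0.53 ± 0.16, SE), where 2.36% of all genes were lower at that p. Ier3 and Jund were at 0.21 ± 0.12 and -0.14 ± 0.10. In the FOXO and quiescence list, which bears on Btg1 as a reported FOXO3 target, 8 of 18 were higher and 10 lower. Pik3ip1, an inhibitor of PI3 kinase and the 1 gene of this list at an unadjusted p under 0.05, was at 6.97, 7.11 and 7.01 in HLX arrays, against 7.29, 7.48 and 7.63 in control arrays, without overlap (-0.43 ± 0.12, p from limma 0.00636). It was 1 of 18 genes, beside the same 2.36% of all genes. Klf4 was at -0.20 ± 0.10 without overlap, Cdkn1c, a CDK inhibitor, at 0.21 ± 0.16, and Foxo3, given outside the naming rule, at -0.15 ± 0.13.

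Cell cycle genes are the usual readout of this family. Of 17 measured cyclins, CDKs and RB family genes 13 had higher and 4 lower means with HLX, with a median of 0.093, where 47.5% of all genes had a higher mean, and 54.4% after median centring. At an unadjusted p under 0.05 stood 2 genes, Ccnd1 and Cdk2, both higher, where 2.44% of all genes were higher at that p, and their adjusted p from limma was 0.47 or more. Ccnd1, whose transcription BTG2 and TOB1 are reported to repress, was at 9.15, 9.38 and 9.10 in HLX arrays, against 8.14, 8.04 and 8.43 in control arrays, with no overlap. Cdk2 was at 0.41 ± 0.15 without overlap and Ccne2 at 0.31 ± 0.15 (SE). On the same arrays Btg1 was lower, Btg2 had the higher mean and Tob1 and Tob2 overlapped, and no relation between these genes was tested.

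**Figure D4:**
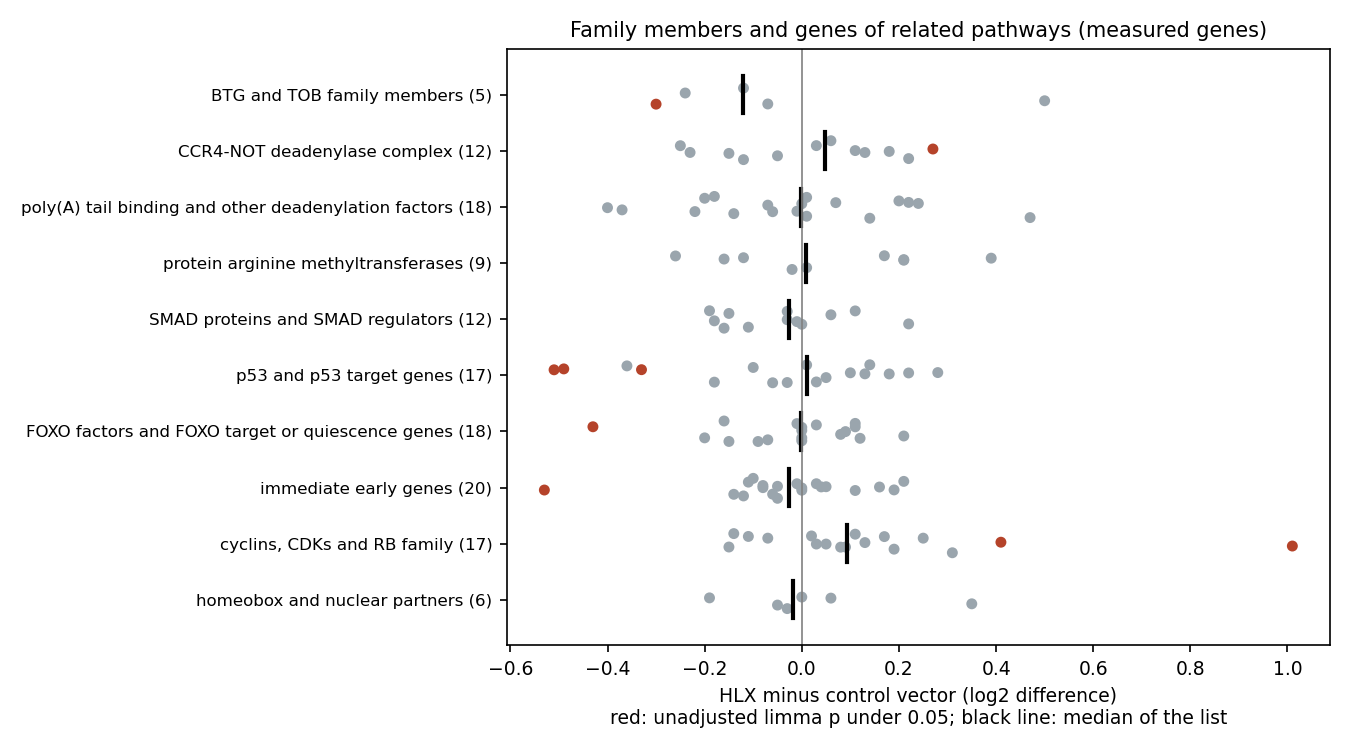
HLX minus control vector in log2 units for every measured gene of the family and of 9 related lists (number measured in brackets), with black lines at list medians and red points at an unadjusted p from limma under 0.05. List medians lie between -0.12 for the family and 0.093 for cyclins, CDKs and RB family genes.

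The genes whose profile over the 6 arrays was most like that of a member were taken by Pearson correlation among genes above the median level, as a description with no test. Genes whose symbols mark predicted genes, clones, small RNAs or olfactory and vomeronasal receptors were left out. For Btg1 they were Fam160b2 (r = 0.987), Coq8b (r = 0.984) and Pmaip1 (r = 0.979), and for Btg2 Rchy1 (r = 0.991), Polr3a (r = 0.989) and Gspt2 (r = 0.986). Pmaip1 shared with Btg1 the high value of control replicate 3, and Gspt2 shared with Btg2 the low values of HLX replicate 1 and of control replicates 2 and 3. For Tob1, whose profile is set by HLX replicate 3, they were Rangrf, Fam174a and Cdc27 (r = 0.989 to 0.990). For Tob2 they were Slc30a3, Pcsk4 and Nrsn2 (r = 0.986 to 0.993), and for the dim Btg4 Fars2, Nyx and Dock8 (r = 0.987 to 0.989). The search covered the 9426 to 9427 genes that remained, and with 6 arrays the order among such genes rests on a few values.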

How the data were processed

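RNA from 6 samples, 3 per vector, was measured on 1-colour Affymetrix arrays after amplification of 3 ng, per the labels' protocols. The deposited values are log2 levels of each probeset on each array, obtained by the authors with RMA, with Affymetrix Power Tools also named, per the submitters' processing notes. That they are log2 values follows from their range, and the genome build is not given in the sources. The number of arrays limits the precision.

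Of 35556 probesets 21789 had 1 symbol, 1621 several and 12146 none listed. The brightest 1-symbol probeset per gene by mean over the 6 arrays was kept (19938 genes), with no filter on dim probesets. HLX minus control was fitted over all genes with limma 3.58.1 (lmFit, eBayes) under R 4.3.3 as a 2-sided test. P-values were adjusted by Benjamini-Hochberg at a threshold of 0.05. The SE of a difference fitted by limma is the moderated one. For shifts between paralogues the SE is not moderated and comes from the variances of the 2 groups. Pairs of paralogues were tested by exact 2-sided permutation over arrays in scipy 1.17.1. The fit was tested on simulated data. Btg3 was added from shared probesets after the annotation was seen.

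Named are Hlx, the members, the 3 genes with the smallest p in each list and the 3 genes most like each member, leaving out predicted genes, clones, small RNAs and olfactory or vomeronasal receptors. Cell type markers were named outside this rule, after their values were seen; other exceptions are marked. Members and lists were chosen with earlier results of these data known. Alternatives were other normalizations, a filter on dim genes, probeset means, other priors, array weights, a replicate block and leaving out each array.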

Additional observations from a re-analysis of the deposited data

How the results depend on the processing

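No member reached an adjusted p under 0.05 in any of the 69 alternative fits of the 5 members, and in 67 the direction was that of all arrays. Not all of these could change the direction. Another prior, the replicate block, the filter on dim genes and probeset means leave a member's difference as it was and change only its p. Only the other normalizations, the array weights and leaving out an array could change the direction. With other normalizations, priors, weights, filters or the replicate block, Btg1 stayed between -0.34 and -0.28 (unadjusted p from limma 0.0310 to 0.0639) and Btg2 between 0.44 and 0.53 (0.0650 to 0.112). The number of members at an unadjusted p under 0.05 ran from 0 to 2. Leaving out 1 array moved Btg1 between -0.37 and -0.19, Btg2 between 0.33 and 0.71, Btg4 between -0.22 and -0.06, Tob1 between -0.39 and 0.0086 and Tob2 between -0.19 and 0.03. For pairs of paralogues, leaving out 1 array gave -1.08 to -0.66 for Btg1 minus Btg2, 0.43 to 0.80 for Btg2 minus Btg4, 0.35 to 1.04 for Btg2 minus Tob1, 0.41 to 0.81 for Btg2 minus Tob2, -0.37 to -0.12 for Btg1 minus Tob2, -0.29 to 0.0023 for Btg1 minus Btg4, -0.33 to 0.07 for Btg1 minus Tob1, -0.23 to 0.32 for Btg4 minus Tob1, -0.17 to 0.02 for Btg4 minus Tob2 and -0.42 to 0.20 for Tob1 minus Tob2. Over all genes the count at an adjusted p under 0.05 was 0, and 1, Hlx, with a trended and robust prior. At an unadjusted p under 0.05 it was 958 in the main fit and 805 to 1269 over the alternatives that keep all genes. With the filter on dim genes, which leaves fewer genes to test, it was 606. Of 140 alternative list medians 5 moved by more than the spread between replicates. The 140 include those with another prior and with the replicate block, which cannot change a median. The filter on dim genes leaves out Btg4, so it has no value there.

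Same-numbered arrays of the vectors share no stated origin, so the numbers were not taken as pairs. Their deviations correlated at 0.20, 0.01 and 0.14 for numbers 1, 2 and 3, and those of differently numbered arrays at -0.23 to 0.11. These values do not settle whether the numbers mark pairs. With the replicate number as a block, Btg1 was at -0.30 (unadjusted p from limma 0.0425) and Btg2 at 0.50 (0.112), and 0 genes passed at an adjusted p under 0.05.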
